A study of Mus musculus with 20 samples.

Results

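The public TCRα sequences of CD8 T cells described here are the CDR3α amino acid sequences that recurred in most mice of the series. An in-frame CDR3α was taken as public when at least 1 unique molecule carried it in 12 or more of 17 mice; the members were thus chosen by their detection in these libraries, and 820 of 89720 distinct in-frame sequences met that rule. The libraries were TCR sequencing libraries of CD8 T cells sorted as TCRβ-high CD4-CD8+ from male mice of 9 to 12 weeks, backcrossed to C57BL/6, and the labels list 5 mice per genotype. WT mice carried both catalytic subunits. β5i-KO mice lacked β5i (encoded by Psmb8), β5t-KO mice lacked β5t (encoded by Psmb11), and BIT mice were homozygous for an allele that places the β5t-encoding sequence in Psmb8, so that β5t is made in place of β5i. The study made several independent BIT lines and shows a single line unless it says otherwise. The rule used 4 BIT, 4 β5t-KO, 4 WT and 5 β5i-KO mice. It left out BIT replicate 3 (450 distinct in-frame CDR3α) and β5t-KO replicate 5 (24 distinct in-frame CDR3α), and no TCRα table of WT replicate 5 was analysed here.

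β5t is the catalytic subunit of the thymoproteasome, which cortical thymic epithelial cells use to make the peptides that positively select CD8 T cells. β5i is the corresponding subunit of the immunoproteasome, present in other antigen-presenting cells of the thymus and periphery. A TCRα chain is made by joining a V segment to a J segment, and the CDR3α loop across that junction faces the peptide held by the MHC molecule. Nucleotides can be trimmed from both ends or added between them, by the enzyme TdT or as palindromic copies of an end, and different nucleotide junctions can encode the same amino acid loop. The sequencing does not measure Psmb8 or Psmb11, so the genotypes rest on the labels. A higher level of a sequence can mean more cells that carry it or more TCR RNA per cell, which cannot be told apart.

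The nucleotide sequences show what a public CDR3α consists of. Capitals mark the bases that the deposited alignments place between the end of V and the start of J, and V is the first gene listed for the clonotype. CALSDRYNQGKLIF, the most abundant public sequence, is shown for its junctions of TRAV12-1 (chr14:53775648-53776195, plus strand, GRCm39) and TRAJ23 (chr14:54433538-54433597, plus strand), which differ in the codon between the V-encoded and J-encoded parts.
Variant 1, found in 15 mice: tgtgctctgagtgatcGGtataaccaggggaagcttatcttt
Variant 2, found in 14 mice: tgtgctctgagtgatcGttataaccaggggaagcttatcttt
Variant 3, found in 14 mice: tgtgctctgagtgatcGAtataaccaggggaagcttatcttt
Variant 4, found in 13 mice: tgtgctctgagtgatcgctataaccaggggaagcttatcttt
Variant 5, found in 13 mice: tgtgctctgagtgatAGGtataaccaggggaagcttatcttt
These are 5 of its 19 nucleotide variants. The alignments, which extend each segment end by palindromic bases, left 0 to 3 added bases in them. A match to the germline segments of the B6 reference genome left 3 or 4, with 4 in variant 4, where the alignments left 0.

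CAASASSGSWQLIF, the public sequence with the most nucleotide variants (43), is shown because the deposited alignments left no added base in its leading forms. It joined mainly TRAV14 segments to TRAJ22 (chr14:54434705-54434764, plus strand, GRCm39).
Variant 1, listed with TRAV14N-3 and found in 17 mice: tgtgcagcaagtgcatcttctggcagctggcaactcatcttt
Variant 2, listed with TRAV14-2 and found in 17 mice: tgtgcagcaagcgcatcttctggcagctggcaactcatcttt
Variant 3, listed with TRAV5D-4 and found in 16 mice: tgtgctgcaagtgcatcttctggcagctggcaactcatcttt
Variant 4, listed with TRAV14D-1 and found in 15 mice: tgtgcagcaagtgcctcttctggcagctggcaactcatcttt
Variant 1 made up 77.3% of the molecules of this CDR3α, and its share ranged over the genotypes from 75.6% (β5i-KO) to 79.0% (WT). The match to the germline segments left 0 added bases in variants 1 and 3, and 2 in variants 2 and 4.

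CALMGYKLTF, of 10 residues, is shown as the most abundant public sequence that was nearly missing from β5t-KO mice. It joined TRAV12 to TRAJ9 (chr14:54446850-54446907, plus strand, GRCm39).
Variant 1, found in 14 mice: tgtgctctgatgggctacaaacttaccttc
Variant 2, found in 11 mice: tgtgctctcatgggctacaaacttaccttc
Variant 3, found in 11 mice: tgtgctctAatgggctacaaacttaccttc
The first variant held 66.4% of its molecules, and neither of the first and second variants had an added base.

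Most CDR3α sequences were private. Of the 89720 sequences, 63070 were found in 1 mouse, 11247 in 2 mice, 358 in 11 mice, 300 in 12 mice, 38 in 16 mice and 13 in all 17 mice. The 358 sequences just outside the rule had a median level of 109 counts-per-million (CPM, unique molecules over all in-frame molecules of a library), averaged over mice, and the 300 just inside had 134. Abundance and sharing are tied by the rule, since a more frequent sequence is found in more mice. The public sequences were 0.914% of the distinct sequences and held 725825 of 3184301 in-frame molecules. Their mean level ranged from 49.6 to 15030.0 CPM, with a median of 189.9. Few detections rested on a single molecule, 223 of 10905 (2.04%, against 8.50% for the other sequences). Of the 223, 162 fell in β5i-KO replicate 4, among the 664 public sequences found there. When 2 molecules were required, 720 of the 820 were still found in 12 or more mice.

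**Figure D1:**
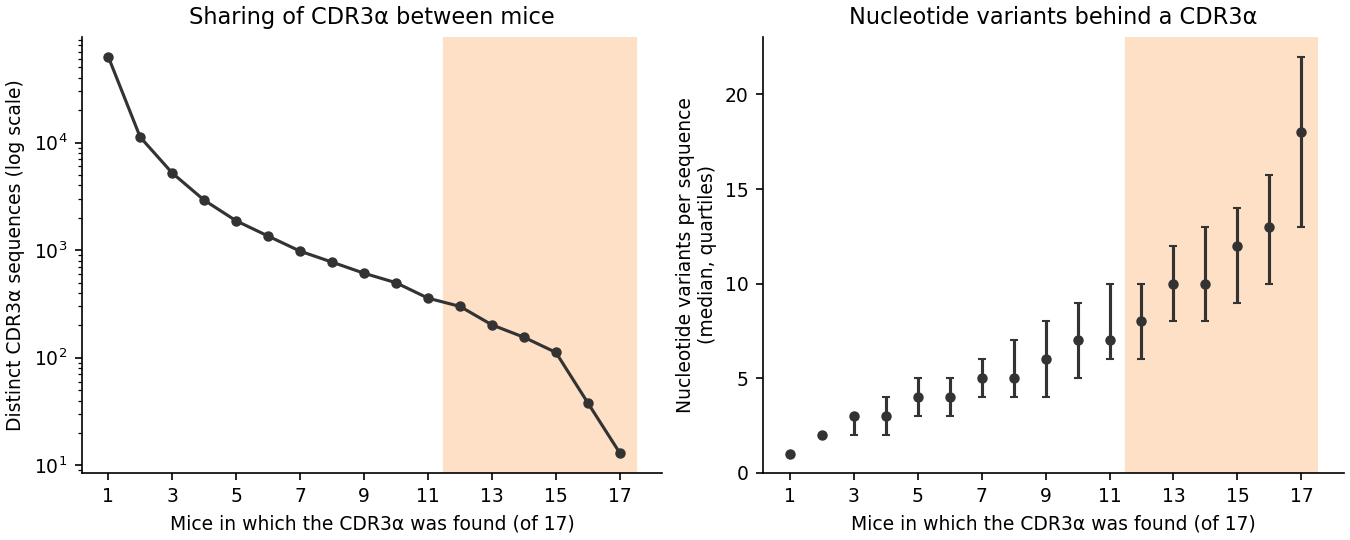
Sharing of CDR3α sequences over 17 mice. Left, distinct sequences on a log axis against the number of mice in which they were found, falling from 63070 in 1 mouse to 13 in all 17; right, nucleotide variants per sequence (points, medians; bars, quartiles), with the public range shaded. The median rises from 7 variants for sequences in 11 mice to 8 for those in 12 mice.

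Each public CDR3α was encoded by several nucleotide sequences. The number of nucleotide variants per public sequence, over all mice, ranged from 2 to 43 with a median of 10, and 418 of the 820 had 10 or more. Among all sequences 72.2% had 1 variant, and no public sequence did. A sequence found in more mice has more occasions to show variants, so these counts describe the members and are not a test. Counting only variants found in 2 or more mice, the median was 5 (range 1 to 19). The most abundant variant was not the same in every mouse for 801 of the 820, and for 239 of them 1 variant was itself found in 12 or more mice. After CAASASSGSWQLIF, the most variants were found for a sequence of 14 residues led by TRAV19 (28) and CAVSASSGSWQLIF (26), which also use TRAJ22.

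Within each mouse the public sequences were shorter and carried fewer added nucleotides than the other sequences of that mouse. Counting each clonotype (V gene, J gene and nucleotide CDR3) once, the public CDR3α had a mean length of 13.2 ± 0.117 residues (SD, n = 17 mice) and the others 13.7 ± 0.109, and the public mean was lower in 17 of 17 mice. Added nucleotides averaged 1.03 ± 0.0768 per public clonotype and 2.52 ± 0.0577 per other clonotype, again lower in 17 of 17 mice. The share of clonotypes without any added nucleotide was 51.4% ± 3.14 for public and 22.2% ± 1.12 for other sequences, higher in 17 of 17 mice. For each of these 3 features the two-sided permutation test with random sign changes over the 17 mice gave p = 4e-05 (adjusted p = 4e-05). A public sequence had 2.28 ± 0.920 nucleotide variants within a mouse and another sequence 1.13 ± 0.0670, which is a description, since detection in these libraries chose the members and goes with abundance and variant number. All mice share the same member list, so this test sets the difference against the spread between mice only. With sequences of at least 10 molecules in both classes, the differences were -0.455 residues, -1.33 added nucleotides, 27.97 percentage points and 1.22 variants. Added nucleotides here follow the deposited alignments, which count palindromic copies of a segment end as V or J. Counted by the germline match, the differences in added nucleotides and in the share without any kept their direction.

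The same features were measured in the libraries that played no part in the choice of members, and BIT replicate 3 showed the same pattern. In BIT replicate 3, 74 of 450 sequences were public (16.4%) and held 21.1% of its molecules. Its public clonotypes averaged 13.1 residues and 0.807 added nucleotides, and its others 13.8 residues and 2.49 added nucleotides. β5t-KO replicate 5 held 4 public sequences among 24 (18.3% of 1112 molecules), too few to compare. Its public clonotypes averaged 14.25 residues and 1.25 added nucleotides, and its others 13.15 residues and 2.2 added nucleotides, so length there went the other way.

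**Figure D2:**
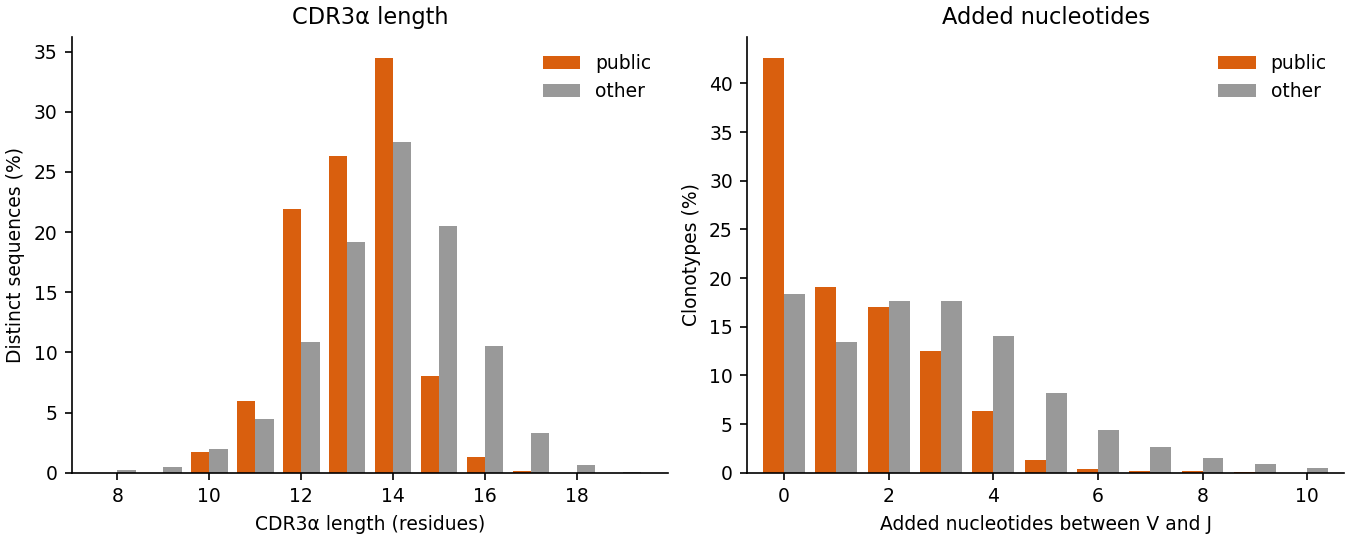
Length and added nucleotides of public (orange) and other (grey) CDR3α from 17 mice. Left, percent of distinct sequences at each length in residues, where 34.5% of public sequences have 14 residues and 8.05% have 15. Right, percent of clonotypes at each number of added nucleotides (deposited alignments), where 42.7% of public and 18.4% of other clonotypes have none.

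Counted over distinct sequences, public CDR3α ranged from 10 to 17 residues. By the deposited alignments, 671 of the 820 had a clonotype without added nucleotides and 149 had none. By the same alignments 58.1% of public molecules carried no added base, against 23.0% of other molecules. The sequences with the highest mean number of added nucleotides were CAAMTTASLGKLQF (8.67) and those of 15 residues led by TRAV7 (8.06) and TRAV3 (7.34), all of TRAJ24. These values are overstated: the deposited alignments start TRAJ24 later than the B6 reference does, and the germline match gave 1.14, 2.48 and 1.26 added nucleotides. The base run in capitals below is therefore mostly J-encoded.
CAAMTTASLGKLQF, first variant, listed with TRAV14D-1, 7 mice: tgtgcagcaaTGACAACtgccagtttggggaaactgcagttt
The germline match left 0 added bases in that variant. There were 10 public sequences of TRAJ24.

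Each of the 820 public sequences used a single J gene, whereas the V segment was less fixed. A public sequence was listed with a median of 3 V subgroups (range 1 to 11), and 100 were listed with 1. By the leading V subgroup, TRAV12 carried 290 public sequences (35.4%, against 21.9% of all sequences) and TRAV14 carried 191 (23.3% against 10.5%). TRAV7 followed with 127 (15.5% against 13.6%), TRAV3 with 107 (13.05% against 8.42%), TRAV16 with 26 (3.17% against 5.33%), and TRAV13 and TRAV6 with 14 each (1.71% against 7.56% and 7.08%). For 38.5% of public clones several V genes were listed, and the reason was not tested. By J gene, TRAJ22 led with 85 public sequences (10.4% against 4.21% of all), before TRAJ30 with 62, TRAJ26 with 53, TRAJ23 with 51, TRAJ15 with 48 and TRAJ12 with 44. The most frequent V-J pairs were TRAV14-TRAJ22 (26), TRAV12-TRAJ22 (25), TRAV12-TRAJ15 (23), TRAV12-TRAJ23 (21) and TRAV12-TRAJ31 (21). Along the J locus the public sequences were 13.7% from TRAJ61 to TRAJ41, nearest the V segments, 58.2% from TRAJ40 to TRAJ21 and 28.2% from TRAJ20 to TRAJ2, while all sequences were 25.6%, 47.0% and 27.4%. These shares are descriptions and were not tested.

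Rearrangements of innate-like T cells were absent from the list. No public sequence joined TRAV11 to TRAJ18, as NKT cells do, or TRAV1 to TRAJ33, as MAIT cells do. TRAV11-TRAJ18 molecules made up 0 to 0.0337% and TRAV1-TRAJ33 molecules 0 to 0.176% of a library.

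Libraries differed in depth and diversity. In-frame molecules per library ranged from 13519 (β5i-KO replicate 4) to 555786 (WT replicate 4), and distinct in-frame CDR3α from 609 (β5t-KO replicate 2) to 21466 (BIT replicate 1). WT replicate 1 (2326 sequences) and β5t-KO replicates 2 and 4 (609 and 1602) stood apart by few distinct sequences at 71357, 74491 and 156150 in-frame molecules. No libraries of one genotype held identical values. The labels do not say whether mice were processed together, so p-values measure the spread between these mice.

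The share of in-frame molecules held by public sequences was 27.4%, 24.2%, 23.0% and 21.8% in the 4 WT mice and 21.5%, 24.03%, 20.6%, 21.4% and 24.7% in the 5 β5i-KO mice. It was 26.0%, 30.4%, 24.1% and 29.0% in the 4 β5t-KO mice, and 20.8%, 20.8%, 19.5% and 21.1% in the 4 BIT mice. The mean was highest in β5t-KO mice (27.4% ± 2.84, SD, n = 4), before WT (24.1% ± 2.41, SD, n = 4), β5i-KO (22.4% ± 1.81, SD, n = 5) and BIT mice (20.6% ± 0.723, SD, n = 4). The BIT mice lay below every WT and every β5t-KO mouse, while WT overlapped with β5i-KO and with β5t-KO. By the exact permutation test (two-sided, 5 comparisons), BIT against WT and BIT against β5t-KO each gave p = 0.0286, the smallest that 4 against 4 mice allow, and an adjusted p of 0.0714. The exact permutation test gave p = 0.302 for β5i-KO and 0.171 for β5t-KO against WT (adjusted p 0.302 and 0.214), and 0.0794 between BIT and β5i-KO mice (adjusted p 0.132), so no comparison passed 0.05 after adjustment. The molecules counted come from the libraries whose detections chose the members, so these shares and their p-values are a description.

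The diversity of the library moved with this share. Over the 17 mice the share fell as the number of distinct CDR3α in the library (log10) rose, with Pearson's r = -0.919 (permutation p = 2e-05, the smallest that the permutations can give) and Spearman's rho = -0.860 (permutation p = 6e-05). Without β5t-KO replicates 2 and 4, the libraries farthest from the median, r was -0.826 (permutation p = 2e-04) over 15 mice. For deviations from the genotype means, r was -0.884. It was the only relation of this kind computed, and the part of diversity in the difference between genotypes was not tested. Since the same libraries chose the members, this correlation is a description too.

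The share was also taken apart into the 13 sequences found in all 17 mice and the other 807 public sequences. The share of the 13 was 9.38% ± 1.36 for β5t-KO, 3.02% ± 0.622 for WT, 2.03% ± 0.20005 for β5i-KO and 1.78% ± 0.0655 for BIT mice (SD over 4, 4, 5 and 4 mice), and the groups did not overlap. The share of the other 807 was 17.99% ± 1.52 for β5t-KO, 21.1% ± 2.05 for WT, 20.4% ± 1.62 for β5i-KO and 18.8% ± 0.671 for BIT mice (SD over 4, 4, 5 and 4 mice). The difference between β5t-KO and WT mice was thus 6.36 percentage points over the 13 sequences and -3.09 points over the 807. Of the 6.36 points, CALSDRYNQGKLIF made up 4.52 and CALSDRYSNNRLTL 1.69, and the other 11 sequences together 0.156. This split was made after the levels of these sequences were known and is given with no test.

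**Figure D3:**
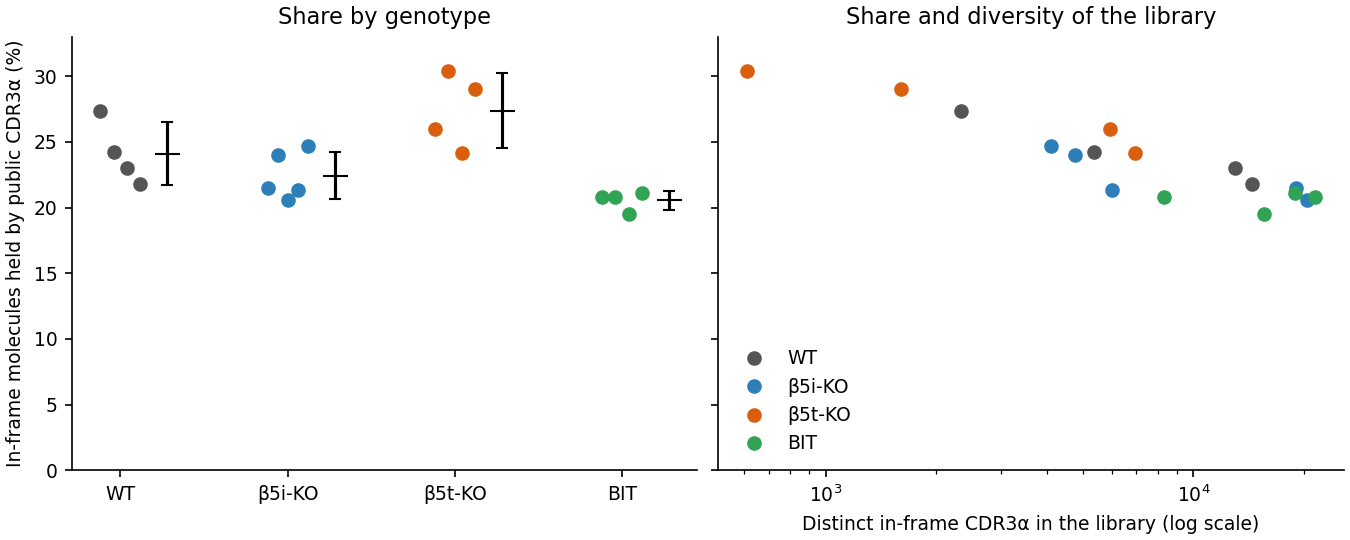
Percent of in-frame molecules held by public CDR3α in each of 17 mice. Left, by genotype (points, mice; bars, mean and SD), with BIT mice between 19.5% and 21.1%; right, the same values against the number of distinct CDR3α in the library on a log axis, from 609 to 21466 sequences.

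The number of public sequences found in a mouse followed its library. Of the 820, 114 were found in β5t-KO replicate 2 and 814 in BIT replicates 1 and 5. With each library thinned to 13519 in-frame molecules (20 draws), a WT mouse showed 568 ± 127 public sequences (SD, n = 4), a β5i-KO mouse 619.7 ± 78.1 (SD, n = 5), a β5t-KO mouse 348 ± 207 (SD, n = 4) and a BIT mouse 661 ± 29.4 (SD, n = 4). These counts are a description, since detection in these mice chose the members. The lowest were those of the 3 libraries of few sequences, 391 in WT replicate 1, 109.7 in β5t-KO replicate 2 and 241 in β5t-KO replicate 4. With 656 clonotypes drawn from each library instead, every difference between genotypes turned, and the means were 99.8 ± 12.02 for β5t-KO, 95.9 ± 23.5 for WT, 94.1 ± 24.9 for β5i-KO and 77 ± 13.4 for BIT mice (SD over 4, 4, 5 and 4 mice). Of the public sequences 316 were found in every WT mouse, 363 in every β5i-KO mouse, 31 in every β5t-KO mouse and 706 in every BIT mouse.

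Length and added nucleotides were also compared between genotypes, weighting each public sequence by its molecules. The mean CDR3α length over public molecules was 13.004, 13.12, 13.15 and 13.17 residues in the 4 WT mice and 13.57, 13.61, 13.51 and 13.66 residues in the 4 β5t-KO mice, which did not overlap. It averaged 13.6 ± 0.0606 for β5t-KO, 13.1 ± 0.0740 for WT, 13.1 ± 0.0261 for β5i-KO and 13.1 ± 0.0205 for BIT mice (SD over 4, 4, 5 and 4 mice). The difference of 0.476 residues between β5t-KO and WT mice had an exact permutation p of 0.0286 (adjusted p 0.0714 over 10 comparisons of length and added nucleotides). Added nucleotides averaged 0.915 ± 0.0496 for β5t-KO, 0.853 ± 0.0311 for WT, 0.834 ± 0.0449 for β5i-KO and 0.786 ± 0.0232 for BIT mice (SD over 4, 4, 5 and 4 mice), with exact permutation p from 0.0286 to 0.508 (adjusted 0.0714 to 0.564). None of these 10 comparisons passed. With each clonotype counted once, all 5 differences in added nucleotides turned direction, and the means were 0.956 ± 0.0392 for β5t-KO, 1.02 ± 0.0843 for WT, 1.07 ± 0.0713 for β5i-KO and 1.08 ± 0.0588 for BIT mice. The abundant sequence of 14 residues described next enters these means, and its part in them was not tested.

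The level of each sequence was compared between genotypes with edgeR's quasi-likelihood test on unique molecules over 6179 sequences. In β5t-KO against WT mice 2 public sequences were higher and 6 lower (adjusted p under 0.05), or 0.976% of the 820. Over all sequences tested 0.0647% were called higher and 0.0971% lower in that comparison. In β5i-KO against WT mice 1 was lower and 0 higher (0.0162% of all tested called in either direction). In BIT against WT mice 2 were lower and 0 higher (0.0486% called in either direction). In BIT against β5i-KO mice 1 was lower and 0 higher (0.0162%), and in BIT against β5t-KO mice 4 were higher and 3 lower (0.162%). DESeq2 called 70 public sequences between β5t-KO and WT mice (8.54% of them, against 7.75% of all tested) and 85 between BIT and β5t-KO mice (10.4% of both). With TMM normalisation edgeR called 63 in the latter, 7.68% of public and 36.1% of all tested sequences. Between BIT and β5t-KO mice the levels of 128 of the 820 public sequences did not overlap, beside 10.6% of all tested sequences. The counts of public sequences were 27 between β5i-KO and WT, 73 between β5t-KO and WT, 35 between BIT and WT and 20 between BIT and β5i-KO. In these comparisons 0.874%, 1.96%, 3.92% and 2.38% of all tested sequences did not overlap. The number of mice with a sequence is part of the rule, so these counts are not a result about the members. At an unadjusted p under 0.05, the counts were 3 higher and 7 lower for β5i-KO, 17 and 79 for β5t-KO and 1 and 6 for BIT against WT, then 3 and 3 for BIT against β5i-KO and 75 and 12 for BIT against β5t-KO. These were 1.22%, 11.7%, 0.854%, 0.732% and 10.6% of the public sequences, below the 17.9%, 31.7%, 19.4%, 12.2% and 40.7% of all tested sequences. Against WT, the median log2 fold change of the 820 was -0.68 in β5t-KO, -0.02 in BIT and 0.0021 in β5i-KO mice, beside -0.88, 0.58 and 0.27 over all tested sequences.

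**Figure D4:**
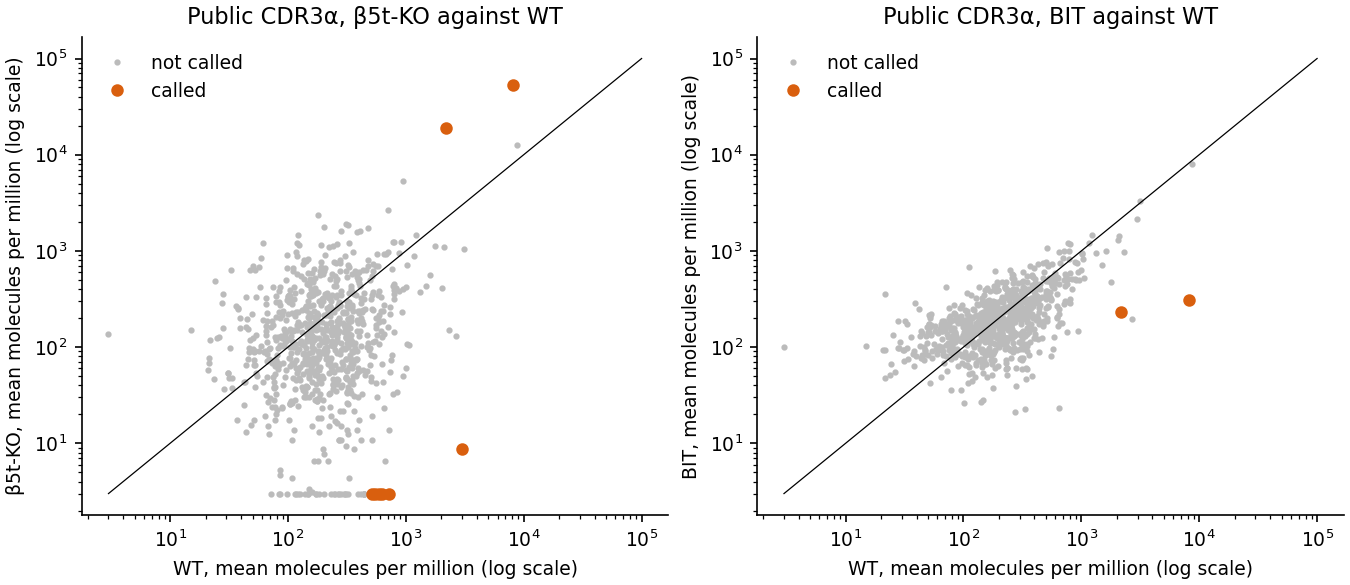
Mean level of each of the 820 public CDR3α in β5t-KO (left) or BIT (right) mice against WT mice, in CPM on log axes. Values under 3 are drawn at 3, the line marks equal levels, and orange points are the 8 and 2 sequences called by edgeR.

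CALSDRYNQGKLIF (TRAV12-TRAJ23, 14 residues, 19 nucleotide variants) was called in all 5 comparisons. Its level was 8591, 7829.8, 12051 and 4203 CPM in the 4 WT mice. It was 896, 3286, 742, 1849 and 1490.1 CPM in the 5 β5i-KO mice. In the β5t-KO mice it reached 55594, 54033, 42792 and 60922 CPM, which is 4.28% to 6.09% of all in-frame molecules and the highest level of any public sequence in each of those mice. In BIT mice it was 177, 339, 559.9 and 155 CPM. The 4 genotypes did not overlap, in the order β5t-KO, WT, β5i-KO and BIT.

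Against WT (8169 ± 3219, SD, n = 4), the edgeR log2 fold change of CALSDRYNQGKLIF was 2.71 ± 0.41 (SE) in β5t-KO (adjusted p 1.80e-07), -2.31 ± 0.37 in β5i-KO (adjusted p 4.31e-06) and -4.73 ± 0.45 in BIT mice (adjusted p 6.46e-22). The log2 fold change of BIT mice was -2.42 ± 0.40 (SE, edgeR adjusted p 6.17e-06) against β5i-KO and -7.44 ± 0.51 (adjusted p 4.36e-44) against β5t-KO mice. The call against WT was lost with TMM normalisation, with DESeq2 and with BIT replicate 3 added for both β5i-KO and β5t-KO (adjusted p by edgeR or DESeq2 up to 0.537 and 0.103 over the alternatives). The call between BIT and β5i-KO mice was lost with reads, TMM and DESeq2. The calls of BIT against WT and against β5t-KO mice held in 17 of 17 alternatives each. In the libraries left out by the rule it had 0 of 43493 molecules in BIT replicate 3 and 0 of 1112 molecules in β5t-KO replicate 5. By molecules alone, 3 molecules would be 0.0069% and 0.270%. These libraries held only 450 and 24 distinct sequences. Molecules of 1 clonotype are not independent, so these floors do not cover the sampling of cells. Whether that β5t-KO library lay below the 4.28% to 6.09% of the other β5t-KO mice can therefore not be said.

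The level of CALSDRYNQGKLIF was spread over several nucleotide junctions in each genotype. A WT mouse held 5 to 10 of its variants, a β5i-KO mouse 4 to 9, a β5t-KO mouse 5 to 9 and a BIT mouse 2 to 7. In the 4 β5t-KO mice the leading variant held 29.3%, 45.1%, 29.1% and 40.2% of its molecules, and variants 1, 2, 3 and 4 printed above were each found in all 4. Variants 1, 2 and 3 held 25.1%, 35.0% and 23.8% of its molecules in β5t-KO mice and 28.6%, 29.0% and 23.5% in WT mice. In β5i-KO mice they held 41.6%, 6.38% and 16.3% of 1034 molecules, and in BIT mice 6.48%, 18.98% and 17.6% of 216 molecules.

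CALSDRYSNNRLTL (TRAV12-TRAJ7, 14 residues, 13 nucleotide variants) had group means in the same order. Its level was 3658, 1269, 2601 and 1195 CPM in WT mice and 552, 612, 367, 148 and 1035 in β5i-KO mice. It was 16919, 13102, 17239 and 28921 in β5t-KO mice, and 167, 287, 350.0 and 132 in BIT mice. The β5t-KO mice lay above all others and the BIT mice below every WT mouse, while β5i-KO and BIT mice overlapped. The edgeR log2 fold change against WT was 3.13 ± 0.65 (SE) in β5t-KO (adjusted p 0.00248) and -3.22 ± 0.66 in BIT mice (adjusted p 0.00282), and -6.35 ± 0.76 in BIT against β5t-KO mice (adjusted p 1.90e-13). The calls held in 11, 8 and 17 of 17 alternatives, and the adjusted p reached 0.251, 0.620 and 0.00377 by edgeR or DESeq2. Leaving out WT replicate 2 or 4 ended the first, and BIT replicate 1, 2 or 5 the second.

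A TRAV12-TRAJ32 sequence of 16 residues (17 nucleotide variants), found in 16 mice, was called in BIT against β5t-KO mice. It was outside the naming rule and was chosen after its values were seen. Its level was 5282 ± 1993 CPM for β5t-KO, 945 ± 532 for WT, 227 ± 163 for β5i-KO and 148 ± 55.8 for BIT mice (SD over 4, 4, 5 and 4 mice). The edgeR log2 fold change of BIT against β5t-KO mice was -5.15 ± 1.13 (SE, adjusted p 0.00611), called in 9 of 17 alternatives with adjusted p up to 0.204, and lost on leaving out any of BIT replicates 1, 2, 4 and 5.

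**Figure D5:**
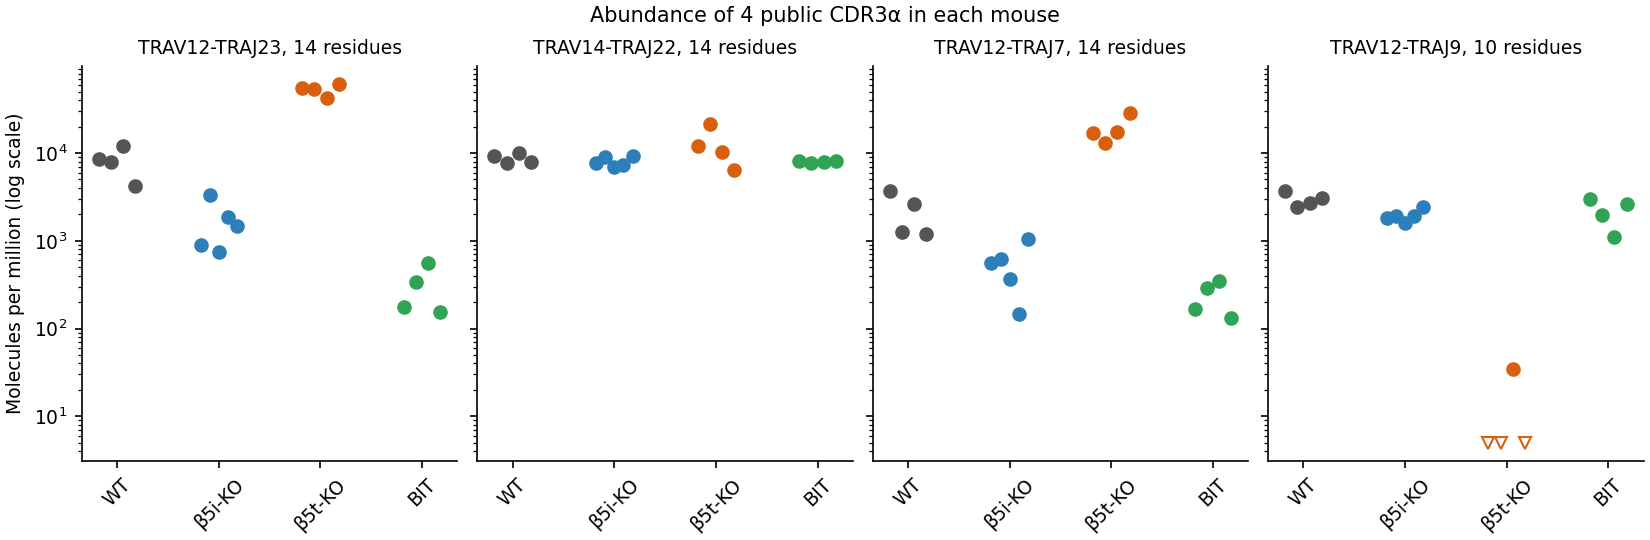
Level of 4 public CDR3α in each mouse, in CPM on a log axis. Points are mice, and open triangles at the bottom mark mice without a molecule. The TRAV12-TRAJ23 sequence lies between 42792 and 60922 in β5t-KO and between 155 and 560 in BIT mice, the TRAV14-TRAJ22 sequence between 6468 and 21452 in all mice, and the TRAV12-TRAJ9 sequence has molecules in 1 of 4 β5t-KO mice.

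The other named sequences found in all 17 mice were called in no comparison. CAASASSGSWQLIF was at 12523 ± 6372 CPM for β5t-KO, 8692 ± 1114 for WT, 8059 ± 1028 for β5i-KO and 7981 ± 217 for BIT mice (SD over 4, 4, 5 and 4 mice) (edgeR adjusted p 0.336 or more in each comparison). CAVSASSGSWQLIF (TRAV3-TRAJ22) was at 1051 ± 313 for β5t-KO, 3130.1 ± 945 for WT, 2379 ± 727 for β5i-KO and 3324 ± 566 for BIT mice (SD over 4, 4, 5 and 4 mice), and edgeR put β5t-KO against WT at a log2 fold change of -1.57 ± 0.82 (SE, adjusted p 0.167). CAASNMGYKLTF (mainly TRAV7-TRAJ9) ranged from 1220.3 ± 298 in WT (SD, n = 4) to 1707 ± 296 in β5i-KO mice (SD, n = 5) as group means. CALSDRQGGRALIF (TRAV12-TRAJ15) ranged from 470.3 ± 269 in BIT (SD, n = 4) to 1772 ± 1589 in WT mice (SD, n = 4), with a log2 fold change of -1.91 ± 1.12 in BIT against WT (edgeR adjusted p 0.420).

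Of the 6 public sequences that were lower in β5t-KO than WT mice, 5 joined TRAV12 to TRAJ9 and 4 of those had 10 residues. Among all 820 public sequences, 11 joined TRAV12 to TRAJ9 and 14 had 10 residues. Of the 6, 5 had no molecule in β5t-KO mice, so the rule fixed their direction. The count is a description and was not tested. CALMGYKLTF was at 3742, 2447, 2662 and 3049.7 CPM in WT mice and at 1829, 1925, 1602, 1923 and 2399.7 in β5i-KO mice. In β5t-KO mice it had no molecule in 3 mice and 34.5 CPM (4 molecules) in replicate 3, and in BIT mice it was at 2977, 1967, 1094 and 2613. The β5t-KO mice lay below all others, and edgeR gave a log2 fold change of -8.34 ± 1.27 (SE) against WT (adjusted p 1.80e-07) and of 7.88 ± 1.25 in BIT against β5t-KO mice (adjusted p 6.14e-07). Each of these calls held in 16 of 17 alternatives and was lost when only the groups compared entered the fit (adjusted p 0.184 and 0.0560 by edgeR). Found in 1 of 4 β5t-KO mice, it could be public only with at least 11 of the other 13, so the rule also bears on its direction.

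A further 5 called sequences had no molecule in any of the 4 β5t-KO mice, which held 508369 in-frame molecules. A floor of 3 molecules over the group is 0.00059%. Molecules of 1 clonotype are not independent: a sequence that was not public held on average 104.8 molecules in β5t-KO replicate 2 and 81.9 in replicate 4. The floor thus does not cover the sampling of cells, and ratios to it are not lower bounds. Such a sequence could be public only if found in at least 12 of the other 13 mice. Its lower level was therefore fixed by the rule, and the ratios are a description. The WT mean of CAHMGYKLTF (TRAJ9) was 122-fold that floor. The ratio was 106-fold for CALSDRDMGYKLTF (TRAJ9) and 99.4-fold for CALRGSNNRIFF (TRAJ31). It was 93.04-fold for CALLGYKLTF and 87.7-fold for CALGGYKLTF, both of TRAJ9. In WT mice their means ranged from 518 ± 396 (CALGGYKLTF) to 722 ± 59.6 CPM (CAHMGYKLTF; SD, n = 4). For the BIT means the ratio to that floor was 121-fold for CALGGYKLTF, 91.5-fold for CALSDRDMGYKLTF and 77.9-fold for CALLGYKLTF. The 8 edgeR calls of these sequences rest on values that the rule used, so neither the calls nor their stability are support. They held in 8 to 13 of 17 alternatives. Against WT, leaving out WT replicate 3 ended the calls of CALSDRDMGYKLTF and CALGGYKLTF, WT replicate 4 that of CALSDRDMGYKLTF, and β5t-KO replicate 1 those of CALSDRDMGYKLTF and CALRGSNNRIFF. Between BIT and β5t-KO mice, leaving out BIT replicate 1 or 5 ended those of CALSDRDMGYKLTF and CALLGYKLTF, BIT replicate 2 those of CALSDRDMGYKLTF and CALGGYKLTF, and β5t-KO replicate 1 that of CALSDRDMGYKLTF.

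In all, 35 public sequences had no molecule in the 4 β5t-KO mice, and none lacked molecules in all mice of another genotype. β5t-KO replicates 2 and 4 held few sequences of any kind. Of the 35, 6 used TRAJ9 (of 25 public TRAJ9 sequences), 5 used TRAJ15 (of 48) and 3 used TRAJ30 (of 62), and their mean levels over 17 mice ranged from 71.9 to 423 CPM. Of the sequences that the study names, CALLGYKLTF and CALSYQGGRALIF were also public. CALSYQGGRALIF (of TRAJ15) averaged 301 ± 235 CPM over 4 WT mice and 225 ± 57.7 over 4 BIT mice (SD), and had no molecule in the 4 β5t-KO mice.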

How the data were processed

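TCR sequencing (SMARTer Mouse TCR a/b kit) was made from sorted CD8 T cells, and the authors ran MiXCR, whose version is not given in the sources used here; the labels name the build mm10. The deposited TCRα tables list clonotypes with counts of reads and of unique molecules. Groups came from the labels. Here unique molecules were the main unit, since reads are PCR copies (7.57 to 134 reads per molecule), and reads were an alternative. In-frame CDR3α held no stop or frame shift. Added nucleotides are those between the deposited V end and J start, where the deposited alignments extend each segment end by palindromic bases. V and J segments were also matched to GRCm39 with GENCODE vM39 (106 of 107 V and 43 of 43 J genes found), from which coordinates were taken; 94.1% of clonotypes matched on both sides, and 57.0% of these gave the same number of added nucleotides. The members and lists were chosen with earlier results of these data known.

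Means of 4 or 5 mice were compared with exact permutation tests (SciPy 1.17.1), and within-mouse differences with 100000 random sign changes, all two-sided with Benjamini-Hochberg adjustment. Single sequences were tested with edgeR 4.0.16 (R 4.3.3; quasi-likelihood, library-size scaling, at least 1 molecule in 3 mice of a genotype, all 17 mice in one fit, adjusted over 6179 sequences, threshold 0.05). All 820 members passed that filter, as their choice implies. DESeq2 1.42.0 was an alternative. The edgeR fit was also run on simulated counts with known increases in β5t-KO mice. Losses were not simulated, and the outcome is not given here. Intervals and floors (3 molecules) cover counting error of molecules only and not the sampling of cells. Named sequences were the 6 most abundant of those in all 17 mice, the 3 with most nucleotide variants, the 3 with most added nucleotides, up to 4 per comparison with the largest fold among called sequences whose groups did not overlap, and those named by the study. TCRβ tables were not used.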

Additional observations from a re-analysis of the deposited data

Results flagged for a closer look

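In 79 groups of 4 or 5 mice, over the share, number, length, added nucleotides and levels reported, 8 values, from 5 mice, stood far from the others of their genotype. Chance alone marks about 1 in 20 such groups if their values are normally distributed. A group where only 1 mouse had the sequence is always marked, so that rate does not hold for it. In β5t-KO replicate 2, public molecules averaged 0.841 added nucleotides, against 0.933 to 0.949 in the other β5t-KO mice. The TRAJ22 sequence with 28 nucleotide variants was at 5746 CPM in β5t-KO replicate 2 (0 to 432 in the other β5t-KO mice) and at 755 in BIT replicate 2 (457 to 496 in the other BIT mice). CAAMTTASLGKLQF was at 489.9 CPM in β5i-KO replicate 2 (0 to 31.3 in the others) and at 2524 in β5t-KO replicate 2 (0 to 379.8 in the others). The TRAV7-TRAJ24 sequence of 15 residues had 10.8 CPM in WT replicate 4 and 0 in the other WT mice. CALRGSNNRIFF had 0 CPM in BIT replicate 2 and 159 to 183 in the other BIT mice. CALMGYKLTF was at 34.5 CPM in β5t-KO replicate 3 and at 0 in the other β5t-KO mice.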

How the results depend on the processing

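The differences between public and other sequences of the same mouse kept their direction in 24 of 24 results under other settings and 68 of 68 with 1 mouse left out. No called public sequence turned direction under any setting run. For those without a molecule in β5t-KO mice the direction against β5t-KO mice could not turn. The share of molecules and the counts of calls were less stable, and the cause was not tested. Differences are given in the order β5i-KO, β5t-KO and BIT against WT, then BIT against β5i-KO and against β5t-KO, unless named, with alternatives chosen after seeing the data marked as added.

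With the sequences found in all 17 mice, the differences in share were -0.991, 6.36, -1.24, -0.248 and -7.60 percentage points, and without them (added) β5t-KO against WT was -3.09 and BIT against β5t-KO 0.793. With sequences found in at least 3 mice of each genotype, a choice that uses the genotypes, they were -1.30, 9.56, -1.44 and, for BIT against β5t-KO, -11.0. With BIT replicate 3, BIT against WT was -3.43 and BIT against β5t-KO -6.70 points. Both passed, but the libraries that chose the members still enter, so these too are a description. The number found turned direction when 656 clonotypes were drawn per library (added), at -1.81, 3.88, -18.9, -17.1 and -22.8, and for β5i-KO against WT without the 3 libraries of fewest sequences (added), at -7.94. Added nucleotides turned direction with each clonotype counted once, at 0.0457, -0.0646, 0.0566, 0.0109 and 0.121, and for β5i-KO against WT with reads, at 0.00159. Length differences with at least 3 mice of each genotype were -0.140, 0.311, -0.130, 0.0103 and -0.441 residues, and added nucleotides for the last 4 comparisons 0.280, -0.143, -0.105 and -0.423. With 14 or more mice, length was -0.0270 (β5i-KO) and 0.474 (β5t-KO) against WT and -0.102 and -0.603 for BIT against β5i-KO and β5t-KO, and added nucleotides -0.0847 (β5i-KO) and -0.156 (BIT) against WT and -0.0713 and -0.283 for BIT against β5i-KO and β5t-KO. Length in β5i-KO against WT mice was -0.0201 without the 3 libraries of fewest sequences.

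Public sequences called numbered 0, 70, 1, 0 and 85 with DESeq2 (5, 479, 4, 2 and 645 of all 6179) and 0, 8, 1, 0 and 63 with TMM (0, 9, 1, 0 and 2232 of all), which moved the median log2 fold change of all tested sequences to 0.34, -1.17, 0.93, 0.52 and 3.07. With reads they numbered 4 (β5t-KO) and 1 (BIT) against WT and 0 for BIT against β5i-KO. With sequences in 2 mice kept they numbered 3 (β5t-KO) and 1 (BIT) against WT and 3 for BIT against β5t-KO. With only the groups compared they numbered 2 (β5i-KO) and 1 (β5t-KO) against WT, and 4 and 2 for BIT against β5i-KO and β5t-KO. With BIT replicate 3 they numbered 0, 1 and 1 against WT. With V subgroup, J gene and CDR3 together they numbered 16 for β5t-KO against WT. Without the 3 libraries of fewest sequences they numbered 3, 15, 5, 3 and 13.

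Leaving out 1 mouse moved the difference in share between -2.45 and -0.572 for β5i-KO, 2.28 and 4.37 for β5t-KO and -4.31 and -2.44 for BIT against WT, and between -2.33 and -1.30 for BIT against β5i-KO and -7.89 and -5.81 for BIT against β5t-KO. The number found in β5i-KO against WT mice moved between -7.94 and 81.8, and length there between -0.0201 and 0.0342, the lowest in both without WT replicate 1. Calls numbered 6 to 19 for β5t-KO against WT (most without β5t-KO replicate 3), 1 to 2 for BIT against WT and 4 to 13 for BIT against β5t-KO (most without β5t-KO replicate 3). Mice share replicate numbers over genotypes, but the labels do not pair them: over 22 same-numbered pairs the correlation of deviations from the group means was -0.118 to 0.0658, and 5 mice matched their own number best. With the replicate number as a block, calls numbered 1, 3, 1, 1 and 3. Libraries of few distinct sequences limit what can be found in WT replicate 1 and β5t-KO replicates 2 and 4.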
